A study of Mus musculus with 10 samples.

Results

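The levels of 10 transcription factor genes that uphold endothelial identity were followed in sorted tumour endothelium: Erg, Fli1, Ets1, Ets2 and Elk3 of the ETS family, Tal1 and Lyl1 of the basic helix-loop-helix family, the LIM-domain adaptor Lmo2, the zinc-finger factor Gata2 and the MADS-box factor Mef2c. They were chosen by name, with earlier results of these data known, and all 10 were found among the 28454 gene symbols of each library. RNA came from CD31-positive cells of B16F10 tumours, a mouse melanoma line, after cells bearing the myeloid protein CD11b had been removed. Of the 10 libraries, 4 came from adult mice labelled wild type, whose strain is Cdh5-CreERt2, and 6 from adult mice of strain Shbflox/flox/Cdh5-CreERt2, in which Shb had been inactivated in endothelium. Both groups thus carry a Cre recombinase that tamoxifen switches on and that the promoter of the endothelial gene Cdh5 drives, and they differ by the floxed Shb allele. Shb encodes an adaptor protein that works downstream of VEGF receptors. The labels name tumours as the tissue, while their source field reads tumours and lungs. The sources used here give neither the induction schedule nor whether tumours were pooled.

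ETS factors bind a short purine-rich core through a shared DNA-binding domain, and nearly every endothelial enhancer holds such cores. ERG and FLI1 keep endothelial genes such as Cdh5 and Cldn5 active, and Tal1, Lyl1, Lmo2 and Gata2 encode parts of a complex that endothelial and blood cells share. MEF2C acts in vessel maturation and induces KLF factors under flow. Several of the 10 genes are also active in blood cells: Fli1, Lyl1, Lmo2 and Mef2c in myeloid or B cells, Ets1 in lymphocytes, and Tal1 and Gata2 in megakaryocytes and mast cells.

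The RefSeq promoter table (build GRCm38.p6) held windows for 7 of the 10 genes (not Fli1, Ets1 or Lmo2), 13 windows in all, and 250 bases before the start were searched on both strands. The windows held 0 to 9 copies of the ETS core GGAA, the most in a Mef2c window. Sequences of Erg, Tal1 and Lyl1 are shown as examples. Lyl1 was higher in the 3 libraries richest in macrophage transcripts than in the others, while Erg and Tal1 overlapped, as described below. Capitals mark GGAA or its reverse complement TTCC. The windows are chr16:95459349-95459598 on the minus strand for Erg, chr4:115056176-115056425 on the plus strand for Tal1 and chr8:84701207-84701456 on the plus strand for Lyl1.
Erg: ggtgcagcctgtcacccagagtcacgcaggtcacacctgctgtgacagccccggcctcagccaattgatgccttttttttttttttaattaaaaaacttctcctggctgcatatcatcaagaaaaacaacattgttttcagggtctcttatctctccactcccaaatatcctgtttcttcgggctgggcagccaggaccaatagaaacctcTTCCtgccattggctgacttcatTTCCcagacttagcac
Tal1: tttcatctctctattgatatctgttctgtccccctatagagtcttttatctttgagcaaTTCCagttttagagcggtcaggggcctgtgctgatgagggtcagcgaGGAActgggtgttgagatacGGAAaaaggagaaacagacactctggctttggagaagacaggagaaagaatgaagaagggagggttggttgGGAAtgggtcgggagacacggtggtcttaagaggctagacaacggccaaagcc
Lyl1: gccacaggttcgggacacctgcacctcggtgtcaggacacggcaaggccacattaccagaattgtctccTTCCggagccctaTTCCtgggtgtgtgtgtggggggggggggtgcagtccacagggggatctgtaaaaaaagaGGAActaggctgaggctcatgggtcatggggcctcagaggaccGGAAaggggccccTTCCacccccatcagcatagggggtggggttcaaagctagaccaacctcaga
The Lyl1 window held 5 GGAA cores, 2 of them within the longer CCGGAA. The Tal1 window shown held 4 GGAA cores and 1 GATAA, the core of the GATA motif. The other Tal1 window held 3 GGAA cores and 0 GATAA. The Erg window held 2 GGAA cores, 1 GATAA and 2 E-boxes (CANNTG), the motif of basic helix-loop-helix factors. Of 32851 windows of the same length in the table, 93.4% held GGAA, 18% held 5 or more, 12% held CCGGAA, 22.6% held GATAA and 66.2% held CANNTG. The motif CAGGAA was found in 25.7%, and both longer motifs contain GGAA. The Erg window shown was picked among 3 of that gene because it holds every motif but CCGGAA, and the other Erg windows held 4 and 0 GGAA cores. The window shown lies inside the annotated Erg gene. The window that borders the upstream end of the gene, chr16:95586594-95586843, was the one with 0 GGAA, and it also held 0 GATAA and 0 CANNTG. A match describes the letters, not binding.

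Values are FPKM, which divides the fragments of a gene by its transcript length and the library's size. They summed to 477329 to 576687 per library, and since FPKM keeps no totals the depth is unknown. Among olfactory and vomeronasal receptor genes, which should be nearly silent, the low value seen most often was 0.01 to 0.03 FPKM in 8 libraries, 0.07 in replicate 2 of the Shb-inactivated group and 0.1 in replicate 1 of wild type, where low genes are the least precise. Shb was 2.78 to 5.44 FPKM in the wild-type libraries and 0.37 to 1.44 in the Shb-inactivated libraries. All 21 pan-endothelial markers were present in every library, and their mean log2(FPKM + 1), called the endothelial score here, was 7.02 to 7.39 in wild-type and 7.24 to 7.78 in Shb-inactivated libraries (exact permutation p = 0.0571, two-sided, 210 splits). The same score over 18 macrophage markers stood at 7.87 in wild-type replicate 3 and at 7.31 and 7.29 in Shb-inactivated replicates 3 and 4. It was 4.48 and 3.59 in wild-type replicates 2 and 1 and 1.67 to 2.11 in the other 5 libraries. A melanoma score over 13 markers was highest, 5.41, in wild-type replicate 1, and 1.03 to 3.91 elsewhere. Markers of other cells in which some of the 10 factors are active overlapped between the groups: the summed FPKM was 82.7 to 188 and 24.5 to 139 for 9 B cell markers, 16.02 to 36.5 and 8.14 to 35.7 for 8 T cell markers, 163 to 1002 and 90.0 to 577 for 10 megakaryocyte markers, and 28.1 to 47.5 and 31.1 to 79.0 for 9 mast cell markers, in wild-type and Shb-inactivated libraries. Their part in the levels of the 10 factors was not tested. In bulk RNA, fewer cells of a type and less RNA per cell cannot be told apart.

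The 10 factors spanned a wide range of levels, and neighbours in the order mostly kept their places. Ets1 was the most abundant, with a mean of 207 ± 32.2 FPKM (SD, n = 10 libraries), followed by Ets2 at 131 ± 27.0 and Elk3 at 108 ± 17.2. Fli1, Erg and Mef2c formed a middle group at 88.1 ± 19.0, 79.9 ± 18.1 and 73.2 ± 11.8 FPKM. Lmo2 stood at 34.1 ± 11.7, Tal1 at 9.38 ± 2.01, Gata2 at 6.2 ± 1.91 and Lyl1 at 2.99 ± 1.23 FPKM. Ets1 exceeded Ets2, Ets2 exceeded Elk3, Mef2c exceeded Lmo2, Lmo2 exceeded Tal1 and Tal1 exceeded Gata2 in 10 of 10 libraries. Elk3 exceeded Fli1, and Gata2 exceeded Lyl1, in 9 of 10. The neighbours Fli1 and Erg changed places between libraries, with Fli1 higher in 4 of 10, and Erg exceeded Mef2c in 7 of 10. Over all libraries the ranges of neighbours overlapped, except for Lmo2 and Tal1. Ranked by mean FPKM among 12805 tested genes, Ets1 was at 375 and Lyl1 at 10419.

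**Figure D1:**
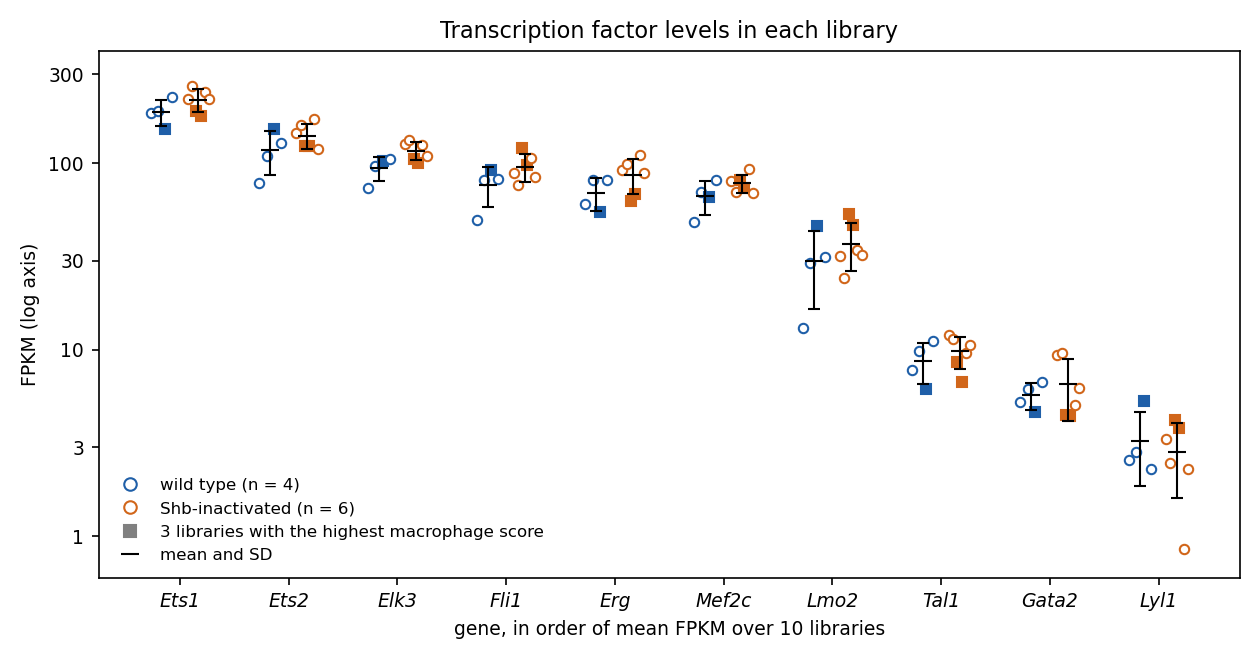
FPKM of each transcription factor gene (log axis) in the 4 wild-type and 6 Shb-inactivated libraries, with the mean and SD of each group; filled squares are the 3 libraries with the highest macrophage score. Ets1 lies highest and Lyl1 lowest, and the groups overlap for all 10 genes.

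None of the 10 factors passed the test between wild-type and Shb-inactivated libraries, although 9 of 10 had the higher mean in the Shb-inactivated group. The log2 differences ran from -0.18 for Lyl1 to 0.38 for Lmo2, with a median of 0.26 against a median of 0.005 over all 12805 genes tested. Of all genes tested, 51.2% had a difference above 0. The limma p adjusted over all genes by Benjamini-Hochberg was 0.989 for each of the 10, and 0% of all genes passed 0.05. Shb itself, with a log2 difference of -1.27 and groups that did not overlap, had the same adjusted limma p (unadjusted 9.7e-05). The test thus missed the inactivated gene, and not passing it does not show that a factor was unchanged. At an unadjusted limma p under 0.05 the count was 1 of 10, Elk3, against 3.45% of all genes, 1.69% with a higher and the rest with a lower mean in the Shb-inactivated group. The groups overlapped for all 10 genes, while 0.718% of all genes did not overlap, 0.539% higher and 0.18% lower in the Shb-inactivated libraries. All 10 passed the filter on low values, 1 FPKM in at least 4 libraries. Without wild-type replicate 1 the median of the 10 was 0.12.

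**Figure D2:**
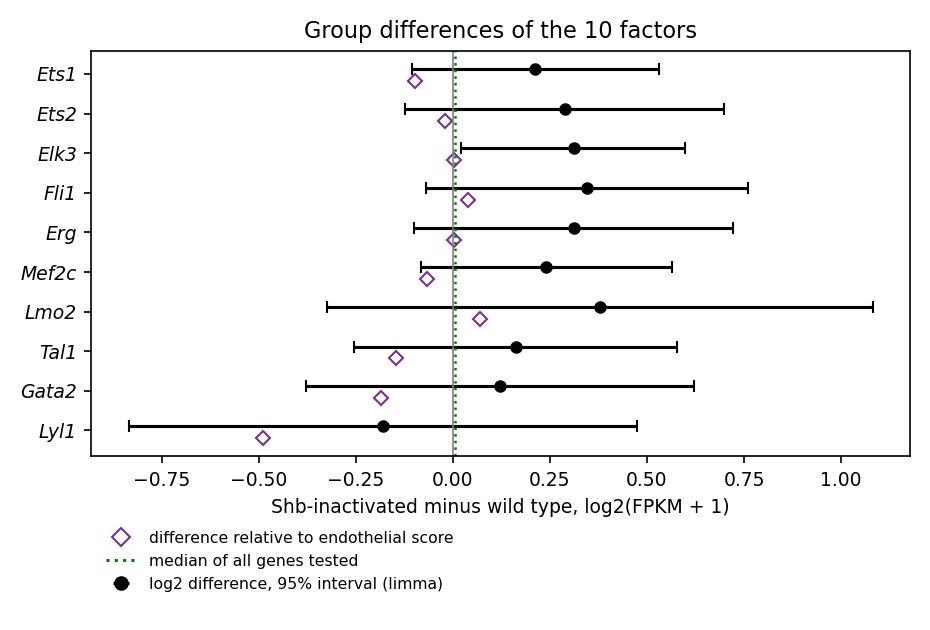
Shb-inactivated minus wild-type difference in log2(FPKM + 1) for each gene with its 95% limma interval (black), and the difference relative to the endothelial score of the same library (open diamonds). The interval of Elk3 alone lies above 0, and the diamonds of Erg and Elk3 lie at 0.

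Of the ETS factors, Erg, which keeps endothelial genes active and inflammatory genes low, was 60.5, 81.5, 54.9 and 81.4 FPKM in wild-type libraries 1 to 4. In the Shb-inactivated libraries Erg ran from 62.8 to 111 FPKM with a median of 90.2. The low libraries were replicates 1 and 3 of wild type and replicates 3 and 4 of the Shb-inactivated group, and 4 of 6 inactivated libraries lay above every wild-type one. The Erg means were 69.6 ± 13.9 (SD, n = 4) and 86.9 ± 18.1 FPKM (SD, n = 6), a log2 difference of 0.31 (SE 0.19, 95% interval -0.10 to 0.72; exact permutation p = 0.152). Without wild-type replicate 3 the difference was 0.21. Erg occupies bases 95359169 to 95586593 of chromosome 16 (GRCm38, minus strand).

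Fli1, the closest relative of Erg, was 49.5, 81.5, 91.9 and 82.3 FPKM in wild-type libraries 1 to 4. It ran from 76.8 to 121 FPKM with a median of 93.1 in the Shb-inactivated libraries. Wild-type replicate 1 was the lowest library and Shb-inactivated replicate 3 the highest, and the other values overlapped. The Fli1 means were 76.3 ± 18.5 (SD, n = 4) and 95.9 ± 16.2 FPKM (SD, n = 6), a log2 difference of 0.35 (SE 0.19; exact permutation p = 0.105). Without wild-type replicate 1 the difference was 0.15. Fli1 occupies bases 32422204 to 32542861 of chromosome 9 (minus strand), and Ets1 lies beside it at 32636221 to 32757820 (plus strand).

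Ets1, an early regulator of sprouting vessels that is also abundant in lymphocytes, was 186, 191, 153 and 225 FPKM in wild-type libraries 1 to 4. The Shb-inactivated libraries ran from 179 to 259 FPKM with a median of 221. The macrophage-rich libraries of each group were its lowest. The log2 difference of Ets1 was 0.21 (SE 0.14; exact permutation p = 0.176), and 0.11 without wild-type replicate 3. Its relative Ets2, a target of growth factor signalling through the MAP kinase pathway, was 78.6, 110, 152 and 128 FPKM in wild-type libraries 1 to 4. It ran from 119 to 172 with a median of 134 in the Shb-inactivated libraries. Here wild-type replicates 3 and 4 stood within the inactivated range and wild-type replicates 1 and 2 below it. The log2 difference of Ets2 was 0.29 (SE 0.19; exact permutation p = 0.162), and 0.11 without wild-type replicate 1. Ets2 lies near Erg, at bases 95702075 to 95721051 of chromosome 16 (plus strand).

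Elk3, a ternary complex factor that acts with SRF and can repress its targets, came closest to separating the groups. Elk3 was 73.8, 96.0, 102 and 105 FPKM in the 4 wild-type libraries. Shb-inactivated replicates 1 to 6 held 126, 133, 105, 101, 126 and 109 FPKM. Of the 6 inactivated libraries 5 lay above every wild-type one, and replicate 4 lay within the wild-type range; replicate 3 stood at 105.49 against 104.85 in the highest wild-type library. The Elk3 means were 94.2 ± 14.1 (SD, n = 4) and 117 ± 13.2 FPKM (SD, n = 6). The log2 difference was 0.31 (SE 0.13, 95% interval 0.02 to 0.60; exact permutation p = 0.0333), with the adjusted limma p of 0.989 given above. Without wild-type replicate 1 the difference was 0.20, and without the 3 libraries lowest in small nucleolar RNA (replicates 1 and 2 of the Shb-inactivated group and replicate 1 of wild type) it was 0.12. Elk3 occupies bases 93247414 to 93311135 of chromosome 10 (minus strand). Its exons overlap those of Cdk17 on the other strand, a gene at a mean of 59.9 FPKM, and whether the counting used strand is not given in the sources used here.

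None of the 4 factors of the shared blood and endothelial complex passed the test, and their differences shrank or grew when single libraries were left out. With 1 library left out the log2 difference ran from 0.022 to 0.277 for Tal1 and from 0.013 to 0.206 for Gata2. Tal1, also called SCL, was 7.81, 9.85, 6.13 and 11.1 FPKM in wild-type libraries 1 to 4 and ran from 6.73 to 12 with a median of 10.1 in the Shb-inactivated libraries. Tal1 was lowest in wild-type replicate 3 and highest in Shb-inactivated replicate 1, and the groups overlapped. Its log2 difference was 0.16 (SE 0.19; exact permutation p = 0.414), and 0.02 without wild-type replicate 3. Tal1 occupies bases 115056426 to 115071755 of chromosome 4 (plus strand). Its paralog Lyl1 was 2.58, 2.82, 5.30 and 2.31 FPKM in wild-type libraries 1 to 4 and ran from 0.86 to 4.2 with a median of 2.89 in the Shb-inactivated libraries. The high libraries were the 3 macrophage-rich ones, and Shb-inactivated replicate 5 was the lowest. The log2 difference of Lyl1 was -0.18 (SE 0.30; exact permutation p = 0.610), and its sign turned without wild-type replicate 3 (0.03) or Shb-inactivated replicate 5 (0.01). Lyl1 occupies bases 84701457 to 84704715 of chromosome 8 (plus strand), and its exons overlap those of Nfix on the other strand, a gene at a mean of 1.88 FPKM.

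Lmo2, the adaptor that bridges Tal1 or Lyl1 to GATA factors, had a coefficient of variation of 34.3% over all libraries, below the 40.95% of Lyl1 and above those of the other 8 factors. Its wild-type values were 13.1, 29.3, 45.8 and 31.2 FPKM, and it ran from 24.3 to 53.1 with a median of 33.1 in the Shb-inactivated libraries. Wild-type replicate 1 lay below all others, and the 3 macrophage-rich libraries lay above all others. The log2 difference of Lmo2 was 0.38 (SE 0.32; exact permutation p = 0.329), 0.04 without wild-type replicate 1 and 0.62 without wild-type replicate 3. Lmo2 occupies bases 103957986 to 103981878 of chromosome 2 (plus strand).

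Gata2, the main GATA factor of endothelium, was 5.27, 6.17, 4.65 and 6.71 FPKM in the wild-type libraries. Shb-inactivated replicates 1 to 6 held 9.43, 9.56, 4.47, 4.41, 5.09 and 6.26 FPKM. Shb-inactivated replicates 1 and 2 lay above all other libraries, the other 4 lay at 4.41 to 6.26, and the groups overlapped. The log2 difference was 0.12 (SE 0.23; exact permutation p = 0.610). It was 0.02 without Shb-inactivated replicate 1, 0.01 without replicate 2, 0.04 without wild-type replicate 3, and -0.17 without the 3 libraries lowest in small nucleolar RNA. Gata2 occupies bases 88193891 to 88207032 of chromosome 6 (plus strand). The paralogs Gata1, Gata3, Gata4, Gata5 and Gata6 were far lower, with means of 0 to 0.26 FPKM in either group.

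Mef2c, the MADS-box factor, was 48.6, 70.0, 65.9 and 81.2 FPKM in wild-type libraries 1 to 4 and ran from 69.4 to 92.5 with a median of 76.6 in the Shb-inactivated libraries. Wild-type replicate 1 was the lowest library, and the others overlapped. The log2 difference of Mef2c was 0.24 (SE 0.15; exact permutation p = 0.138), and 0.10 without wild-type replicate 1. Mef2c occupies bases 83504034 to 83667080 of chromosome 13 (plus strand).

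The 10 factors also varied within the groups, and several shared their extreme libraries. Wild-type replicate 1, which had the highest melanoma score, was the lowest of the 10 libraries for 5 factors, Fli1, Ets2, Elk3, Lmo2 and Mef2c. That library also had the lowest endothelial score, 7.02. The share of all genes tested that were lowest there was not counted, so the 5 cannot be set against it. With the melanoma score as a covariate the median log2 difference of the 10 factors was 0.08. Pecam1, which encodes the sorted protein CD31, was also lowest there, at 569 FPKM against 745 or more elsewhere.

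**Figure D3:**
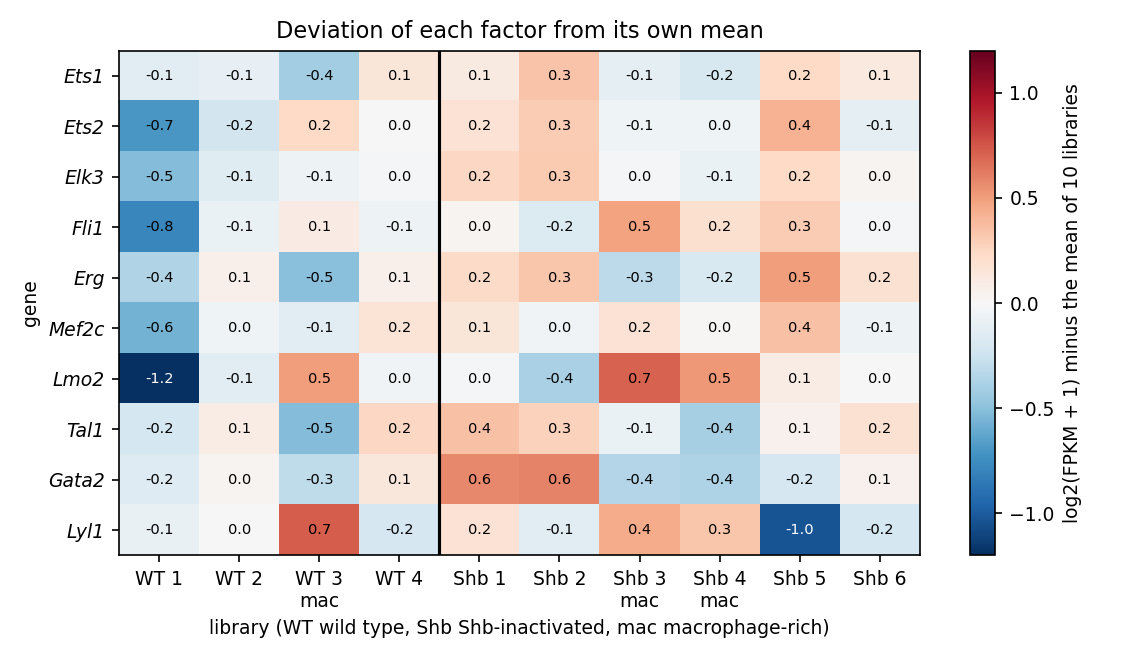
Log2(FPKM + 1) of each factor in each library minus its own mean over 10 libraries, in colour and as a number. Wild-type replicate 1 is low for most factors, and the 3 libraries marked mac are high for Lmo2 and Lyl1 and low for Gata2, Tal1 and Erg.

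Lmo2 and Lyl1 were high, and Gata2 low, in the libraries where macrophage transcripts were high. In the 3 macrophage-rich libraries Lmo2 was 45.8 to 53.1 FPKM against 13.1 to 34.2 in the other 7, and Lyl1 was 3.79 to 5.30 against 0.86 to 3.31. Gata2 was 4.41 to 4.65 there against 5.09 to 9.56. The other 7 factors overlapped between the 3 and the 7 libraries. Over all genes tested, 9.91% were higher in each of the 3 libraries than in all others and 5.92% were lower.

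Ratios within a library do not depend on its scaling. Fli1 was 1.67 times Erg in wild-type replicate 3 and 1.93 and 1.43 times Erg in Shb-inactivated replicates 3 and 4. In the other 7 libraries the ratio of Fli1 to Erg was 0.78 to 1.01. Lmo2 was 7.47, 6.17 and 6.92 times Tal1 in those 3 libraries and 1.67 to 3.56 times Tal1 in the other 7. Both ratios were chosen after their values had been seen, and ratios to Erg were also computed for Mef2c and Ets1. Mef2c was 1.07 to 1.30 times Erg in those 3 libraries and 0.712 to 0.9985 times Erg in the other 7. The ratio of Ets1 to Erg overlapped, at 2.60 to 3.02 and 2.17 to 3.08. Between the groups the log2 ratio of Fli1 to Erg differed by 0.04 (exact permutation p = 0.876) and that of Lmo2 to Tal1 by 0.22 (exact permutation p = 0.652).

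Markers of macrophages were high in the same 3 libraries in which the ratios of Fli1 to Erg and of Lmo2 to Tal1 were high. Among the other 7, wild-type replicates 1 and 2 had the highest macrophage scores, 3.59 and 4.48. There Fli1 was 0.82 and 1.00 times Erg, and Lmo2 was 1.67 and 2.98 times Tal1. Spi1, the ETS factor PU.1 of myeloid and B cells, was 27.4 to 60.9 FPKM in the 3 libraries and 0.55 to 4.84 in the other 7. Itgam, which encodes the depleted CD11b, was 29.3 to 109 and 0.20 to 5.85 FPKM, and all 18 macrophage markers were listed above 0 in every library. The summed macrophage markers ran from 81.3 to 7917 FPKM in wild-type and from 67.5 to 5784 in Shb-inactivated libraries. Their part in the levels of Lmo2, Lyl1, Fli1 and Gata2 was not tested.

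**Figure D4:**
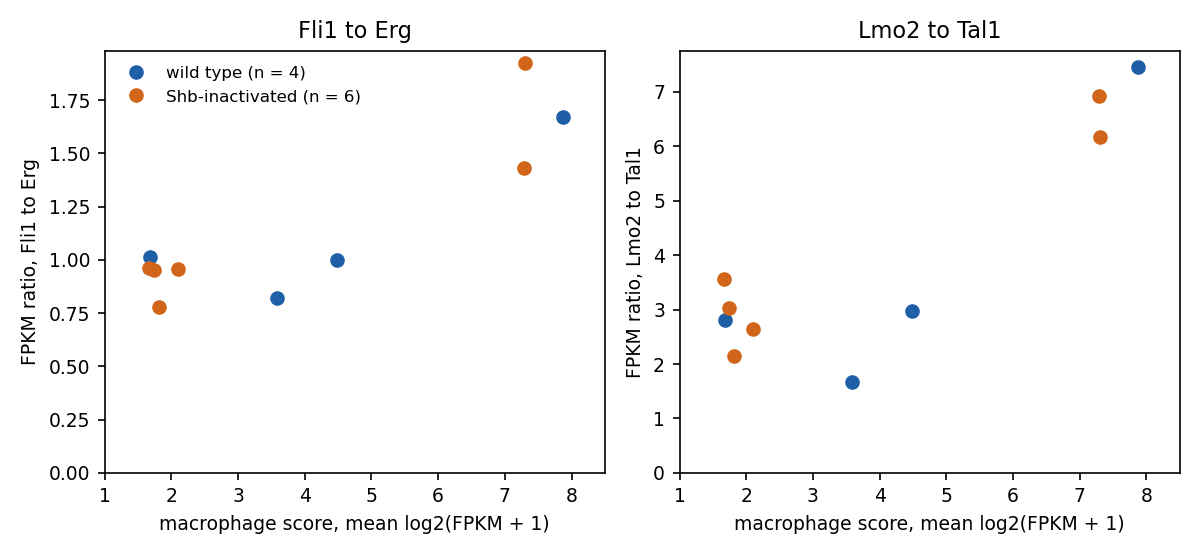
Ratio of Fli1 to Erg (left) and of Lmo2 to Tal1 (right) against the macrophage score of each library, the mean log2(FPKM + 1) of 18 markers. The 3 libraries with a score above 7 have ratios of 1.43 to 1.93 and 6.17 to 7.47, and wild-type and Shb-inactivated libraries lie together.

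Among the 7 libraries with less macrophage RNA, Erg and Elk3 did not overlap between the groups. Erg was 74.4 ± 12.1 FPKM (SD, n = 3) in wild type and 97.4 ± 9.85 (SD, n = 4) in Shb-inactivated libraries, with 81.5 the highest wild-type and 88.5 the lowest inactivated value. Elk3 was 91.6 ± 15.99 (SD, n = 3) and 123 ± 10.04 FPKM (SD, n = 4). Each had an exact permutation p of 0.0286, the smallest that 35 splits can give, and an adjusted limma p of 0.876. As both were picked for their lack of overlap, that permutation p is not separate evidence. Among 12351 genes tested in these libraries, 4.5% were higher and 2.25% lower in every inactivated than in every wild-type library, and 0% passed the adjusted threshold. The filter still asked for 1 FPKM in at least 4 libraries. The 4 inactivated libraries can meet that alone and the 3 wild-type libraries cannot, so the higher and lower shares are not on equal terms. At an unadjusted limma p under 0.05 were 5.16% of these genes, 2.7% with the higher mean in the inactivated group, and Erg, Elk3 and Ets2 among the 10 factors. Ets2 was 105 ± 24.9 (SD, n = 3) and 149 ± 22.9 FPKM (SD, n = 4), with overlapping values and a log2 difference of 0.51 (SE 0.21; exact permutation p = 0.0857). The endothelial score did not overlap in these libraries either, at 7.02 to 7.39 in wild type and 7.47 to 7.78 in the inactivated group. Relative to that score, a measure whose limit is given below, the difference was -0.025 for Erg (exact permutation p = 0.8) and 0.022 for Elk3 (exact permutation p = 0.571). In wild-type replicates 1 and 2 the macrophage and melanoma scores were still above those of the 4 inactivated libraries, and whether these go with the differences was not tested.

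Set against the endothelial score of the same library, no factor reached an exact permutation p of 0.05 between the groups over all 10 libraries. The relative difference was 0.002 for Erg (exact permutation p = 0.981), 0.002 for Elk3 (exact permutation p = 0.952), 0.04 for Fli1 (exact permutation p = 0.876) and -0.02 for Ets2 (exact permutation p = 0.905). It was -0.10 for Ets1, -0.07 for Mef2c, 0.07 for Lmo2, -0.15 for Tal1, -0.19 for Gata2 and -0.49 for Lyl1, with exact permutation p-values of 0.271 to 0.905. Without wild-type replicate 3 the relative difference of Tal1 was -0.263 (exact permutation p = 0.0476, not adjusted for the 10 factors). Elk3 minus the endothelial score lay between -0.80 and -0.48 in all 10 libraries, and Erg minus the score between -1.36 and -0.92. The same measure of Lyl1 ranged from -6.83 to -4.51. Most of the known endothelial targets of these factors, described below, are among the markers of the score. A relative difference near 0 therefore cannot tell no change from a change that the targets share.

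Other members of the ETS family had differences on either side of 0. Of 21 listed family members 14 were tested, 8 with a difference above 0 and 6 below, with a median log2 difference of 0.06 and 0 past the threshold, nor at an unadjusted limma p under 0.05. The most abundant was Elf2 at 42.4 ± 4.66 (SD, n = 4) and 39.2 ± 1.72 FPKM (SD, n = 6). Elk4, a ternary complex factor like Elk3, was 28.5 ± 9.92 and 30.6 ± 4.68 FPKM, and Elf1, which can bind the Tie2 promoter, was 25.2 ± 3.84 and 29.1 ± 3.25 FPKM. Etv2, the factor that starts endothelial fate in the embryo, was listed at 0 in all libraries but wild-type replicate 2, at 0.07 FPKM.

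Partners and paralogs of the 10 factors had a median log2 difference of 0.09, with 12 of 16 tested genes above 0, 0 past the threshold and 4 at an unadjusted limma p under 0.05, against 51.2% above 0 and 3.45% under 0.05 over all genes. Of these 4, Ldb2, Mef2a and Zfpm2, a cofactor of GATA factors, had the higher mean in the Shb-inactivated group and Ssbp2 the lower. Zfpm2 was near the floor, at 0.57 to 0.82 FPKM in wild-type and 0.75 to 1.64 in Shb-inactivated libraries. It reached 1 FPKM in Shb-inactivated libraries alone and so passed the filter only through that group. Its place among the 4 is therefore not evidence of a difference. Ssbp2, which binds LDB proteins, had the lowest unadjusted limma p of the list, 0.0166, and the log2 difference farthest from 0. It was 5.54 ± 1.34 (SD, n = 4) and 3.33 ± 1.15 FPKM (SD, n = 6), a log2 difference of -0.61. Its exact permutation p of 0.0381 was above that of Ldb2 or Mef2a. Tcf4, an E-protein that pairs with Tal1, was 149 ± 14.9 (SD, n = 4) and 186 ± 32.5 FPKM (SD, n = 6; exact permutation p = 0.0524). Ldb2, of the family that joins LMO adaptors into complexes, was 107 ± 25.8 and 141 ± 15.1 FPKM (exact permutation p = 0.0190, n = 4 and 6), and Mef2a, the paralog of Mef2c, was 49.6 ± 10.5 and 61.4 ± 4.53 FPKM (exact permutation p = 0.0238, n = 4 and 6). Each of these genes had an adjusted limma p of 0.989.

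Known endothelial targets of these factors were above 0 in 16 of 16 genes, with a median log2 difference of 0.34, 0 past the threshold and 1, Cdh5, at an unadjusted limma p under 0.05, against the same 51.2% and 3.45% of all genes. The wild-type values of Pecam1 were 569, 864, 745 and 858 FPKM, and it ran from 873 to 1237 with a median of 913 in the Shb-inactivated libraries. It was the 1 gene of the list whose groups did not overlap, against 0.718% of all genes tested (exact permutation p = 0.00476, the smallest that 210 splits can give; adjusted limma p = 0.989). That permutation p restates the lack of overlap and is not separate evidence. Egfl7, a secreted vessel protein, was 590 ± 93.7 (SD, n = 4) and 654 ± 154 FPKM (SD, n = 6), and Cdh5, the gene of VE-cadherin and a target of ERG, was 402 ± 26.3 and 523 ± 83.9 FPKM. Of the 16 targets most are also among the markers of the endothelial score.

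**Figure D5:**
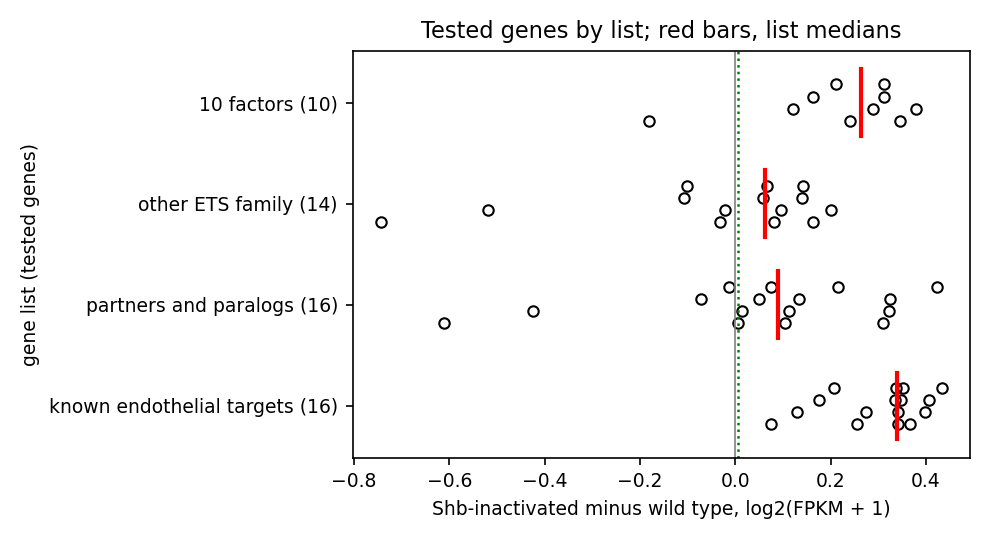
Shb-inactivated minus wild-type difference in log2(FPKM + 1) of each tested gene (circles) in 4 lists, with the list median as a red bar and the median of all genes as a dotted line. The medians are 0.26 for the 10 factors, 0.06 for other ETS genes, 0.09 for partners and paralogs and 0.34 for known targets.

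The genes whose levels across the 10 libraries were most like each factor were found by Spearman's rho among 8815 genes of at least 5 FPKM. With so many candidates and 10 libraries, high values arise in any search of this kind, and they are given as a description. Where genes tied for a place, all are named. Erg was most like Mmrn2, an endothelial matrix protein, Stap2, Uaca and Wdr73, 4 genes tied at rho 0.988. Ets1 was most like Zfp9 (rho 1.0) followed by Fabp4, Ica1 and Nckap1, tied at rho 0.964. Tal1 was most like Clic5 (rho 0.988), followed by Exoc3l2, Fhl3 and Pdgfb, tied at rho 0.964, and Gata2 was most like Efr3b and Sema4c (rho 0.988 each). Fli1 was most like Dpp8 and Pdp1 (rho 0.988 each), and Lmo2 was most like Pdp1 (rho 0.976) and Asah2 (rho 0.964). Lyl1 was most like Dcxr and Mapkapk2 (rho 0.964 each). Elk3 was most like Tap2 (rho 0.976) and Ythdf1 (rho 0.952), and Ets2 most like Cdk19 (rho 0.952), followed by Bnip3l, Sri and Tnfrsf1a, tied at rho 0.915. Mef2c was most like Taf9b (rho 0.976), followed by Eif3c and Hdhd2, tied at rho 0.964. Among the 10 themselves, Fli1 was most like Lmo2 (rho 0.952), Tal1 most like Gata2 (rho 0.903) and Erg most like Ets1 (rho 0.867), while rho was -0.03 between Fli1 and Erg and -0.81 between Ets1 and Lyl1. All libraries share the sort and the FPKM scaling.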

How the data were processed

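Total RNA of CD31-positive tumour cells was made into 4 wild-type and 6 Shb-inactivated strand-marking libraries with ribosomal RNA depleted, per the labels' protocols. The authors deposited FPKM per gene symbol, 1 file per library. Per the submitters' processing notes, the tools named are TopHat2 2.1.1 and Cufflinks 2.2.1, and the build GRCm38. The annotation used, and whether counting heeded strand, is not given in the sources used here. The files write decimals with a comma, and values were read as decimal numbers. FPKM gives no counts, so no count test was run.

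Tests used log2(FPKM + 1), which understates changes of low genes. Genes with 1 FPKM in at least 4 of 10 libraries were tested, 12805 in all, with limma 3.58.1 in R 4.3.3 (mean-variance trend, no covariate, two-sided, Benjamini-Hochberg threshold 0.05). Single genes also had an exact two-sided permutation test over 210 splits. The labels do not tell how the libraries of a group were kept separate, and p-values reflect only how far those libraries scatter. The limma step was tested on simulated data. Alternatives changed the pseudocount, filter, scaling, weights, covariates and libraries. Positions are from GENCODE vM21 (GRCm38) and promoters from RefSeq (GRCm38.p6). Plots used matplotlib 3.10.9.

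The genes named were the 10 factors, Shb, and from each of the lists of other ETS genes, partners and targets the 3 with the highest mean FPKM plus any past the threshold or without overlap between groups. For each factor the 2 genes most like it, and any tied with the second, were added. Other genes named beyond this rule (Spi1, Itgam, Etv2, Ssbp2, Zfpm2, Cdk17, Nfix, the GATA paralogs and the genes tied in likeness) were chosen after their values were seen. The 10 members and the lists were chosen with earlier results of these data known. Of the 14 melanoma markers 13 were found in the files.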

Additional observations from a re-analysis of the deposited data

Results flagged for a closer look

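Lyl1 in wild-type replicate 3 stood far above the other wild-type libraries, at 5.30 FPKM against 2.31 to 2.82. Its gap to the next value took up 0.829 of the range of the 4 libraries, at the limit for a stray value among 4. Of 24 groups of values examined this was the 1 marked, and chance marks about 1 group in 20. This library also had the highest macrophage score, 7.87, and the part of that in the Lyl1 level was not tested.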

How the results depend on the processing

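Depth is unknown, so low genes such as Lyl1 are the least precise. No factor passed the adjusted threshold in any of the 25 alternatives, and 0 genes of the whole table passed in 24. In an estimate of library weights gene by gene, added after the default estimate had stopped before convergence, 1 gene passed, Shb itself (limma p adjusted over all 12805 genes 0.0387). The median log2 difference of the 10 factors was 0.083 with the melanoma score and 0.045 with the endothelial score as a covariate, and ran from 0.12 to 0.34 with 1 library left out. The count of factors whose groups did not overlap was 2 without the 3 macrophage-rich libraries, and 0 to 1 with 1 library left out (Elk3, without Shb-inactivated replicate 4).

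Directions turned as follows, and the cause was not tested. With library weights the log2 difference of Tal1 was -0.032 and that of Gata2 -0.031, and with the gene-by-gene estimate -0.049 and -0.04. With the melanoma score Tal1 was -0.035, Gata2 -0.005 and Lyl1 0.036. With the endothelial score Erg was -0.085, Ets1 -0.027, Tal1 -0.159, Gata2 -0.291 and Lyl1 0.198. Without the 3 libraries lowest in small nucleolar RNA Tal1 was -0.001 and Gata2 -0.174. Lyl1 was 0.095 with the replicate block over libraries 1 to 4 of both groups, 0.095 in those libraries without it, and -0.285 to 0.025 with 1 library left out.

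Relative to the endothelial score, under settings chosen after seeing the data, Erg turned to -0.08 in libraries 1 to 4 and to -0.025 without the 3 macrophage-rich libraries. There Fli1 turned to -0.069, Ets2 to 0.092, Lmo2 to -0.028 and the log2 ratio of Fli1 to Erg to -0.045. Without the 3 libraries lowest in small nucleolar RNA Ets1 turned to 0.006 and Elk3 to -0.012. With 1 library left out the ranges were -0.079 to 0.041 for Erg, -0.092 to 0.161 for Fli1, -0.126 to 0.14 for Ets2, -0.039 to 0.068 for Elk3, -0.196 to 0.335 for Lmo2 and -0.142 to 0.008 for Mef2c, and, with no change of sign, -0.171 to -0.029 for Ets1, -0.263 to -0.082 for Tal1, -0.653 to -0.26 for Lyl1 and -0.255 to -0.101 for Gata2. They were -0.122 to 0.244 for the log2 ratio of Fli1 to Erg and -0.097 to 0.623 for that of Lmo2 to Tal1.

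Nothing in the labels says that replicate numbers pair the mice. Deviations of same-numbered libraries correlated at 0.436, -0.319, 0.707 and -0.546, and 0 of 4 wild-type libraries correlated best with their own number. In libraries 1 to 4 each replicate number occurs once per group, so the block cannot change a log2 difference. The median of the 10 factors was thus 0.21 with and without it, which says nothing about pairing. In both settings 0 genes passed the adjusted threshold.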
